A study of Homo sapiens with 4 samples.

Results

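The 10 genes of glucose uptake and glycolysis described here encode the glucose transporters SLC2A1 and SLC2A3, hexokinase 2 (HK2), the enzymes PFKFB3 and PFKFB4 that set the level of fructose 2,6-bisphosphate, aldolase C (ALDOC), phosphoglycerate kinase 1 (PGK1), enolase 2 (ENO2), lactate dehydrogenase A (LDHA) and pyruvate dehydrogenase kinase 1 (PDK1). They were picked by gene name, with earlier results of these data known. All 10 names were matched among the 39306 gene names of each deposited table. Glucose enters cells through transporters of the SLC2A family, is phosphorylated by hexokinases and is broken down to pyruvate by glycolysis, and lactate dehydrogenase then turns pyruvate into lactate. Differentiated hepatocytes use this pathway in both directions with liver isozymes, whereas hepatocellular carcinoma cells commonly use the isozymes of other tissues and release lactate. All 10 are well-known targets of hypoxia-inducible transcription factors in human cells.

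The cells were MHCC97H, a long-established human line of hepatocellular carcinoma, sequenced as 2 HNRNPM knockdown libraries (cells with a short hairpin RNA against the splicing factor HNRNPM) and 2 wild-type libraries (the same line without a named hairpin). A control hairpin is not given for the wild-type cells, so hairpin delivery and loss of HNRNPM cannot be told apart. Culture conditions, oxygen and glucose included, are not described in the labels. Separate cultures are not stated for the replicates, and every p-value below therefore reflects library-to-library spread that may be technical. Total RNA depleted of ribosomal RNA was sequenced, and the values are RPKM, reads per kilobase of annotated exon, scaled by the total that each library had assigned to genes. In such bulk libraries, more RNA per cell and more cells expressing a gene cannot be told apart.

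The reads recovered from the RPKM values came to 12708165 and 11498663 in the knockdown libraries and to 18317579 and 19659106 in the wild-type libraries, so the knockdown libraries are shallower. HNRNPM itself was measured at 21.8 and 20.4 RPKM in knockdown cells, against 51.3 and 51.6 RPKM in wild-type cells (log2 fold change -1.35 ± 0.07, SE; limma adjusted p = 0.00270). Of 10 hepatocyte and hepatoma markers (9 tested, 1 called higher and 3 lower), KRT8 and KRT18 made up most of the summed level, which was 1098 and 1144 RPKM in knockdown and 907 and 813 RPKM in wild-type cells. The secreted liver products ALB, AFP, APOA1 and TTR were low, at up to 6.28 RPKM in a library. The 6 fibroblast markers (3 called higher) summed to 3.72 and 3.58 RPKM in knockdown and 1.27 and 1.47 RPKM in wild-type cells, and the 4 endothelial markers (2 called lower) to 6.78 and 7.19 against 9.55 and 10.2 RPKM. PTPRC, the defining leukocyte marker, was at 0 in 3 libraries and at 0.0376 RPKM in the fourth, and the 4 measured leukocyte markers, mostly CD68, summed to 61.8 and 60.4 against 47.4 and 58.5 RPKM. Of the 2 leukocyte markers tested, CD14 was called lower (0.125 and 0.138 against 0.839 and 0.728 RPKM) and CD68 was not called. CD14 reached the equivalent of 10 reads needed for testing only in its wild-type libraries. Of the 3 fibroblast markers called higher, COL1A1 and PDGFRB reached it only in their knockdown libraries. For CD14, COL1A1 and PDGFRB the filter thus favoured a difference. The part of these markers in the results was not tested.

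All 10 genes were higher in HNRNPM knockdown than in wild-type cells (limma on log2(RPKM + 0.1), Benjamini-Hochberg adjusted p from 0.00314 to 0.0450 over 20221 tested genes), where 24.9% of all tested genes were called and 11.1% called higher. SLC2A3, ALDOC, PFKFB4, HK2 and ENO2 had at least doubled values, with log2 fold changes from 1.04 to 1.46, and 2.27% of all tested genes were called with a log2 fold change of 1 or more. The other 5 rose by 0.25 to 0.76 on the log2 scale. The median log2 fold change of the 10 genes was 0.90, and 0.76 without HK2, beside -0.03 over all tested genes. The 10 genes were chosen with earlier results of these data known, so their counts and median are no test of the list. In none of the 10 did the libraries of the groups overlap, and 31.0% of all tested genes were likewise higher in both knockdown libraries than in both wild-type libraries, and 36.6% lower in both. Limma-voom on the recovered reads also called all 10 higher, along with 16.2% of all tested genes. Together the 10 genes took 0.289% and 0.280% of the reads in knockdown libraries, against 0.177% and 0.174% in wild-type libraries. With 1 library left out at a time, 7 to 8 of the 10 were called, and the calls that some of these left-out libraries ended were those of SLC2A1, HK2 and PFKFB3. HK2 passed the filter on low values only through its knockdown libraries, so its inclusion among the tested genes favoured a difference.

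**Figure D1:**
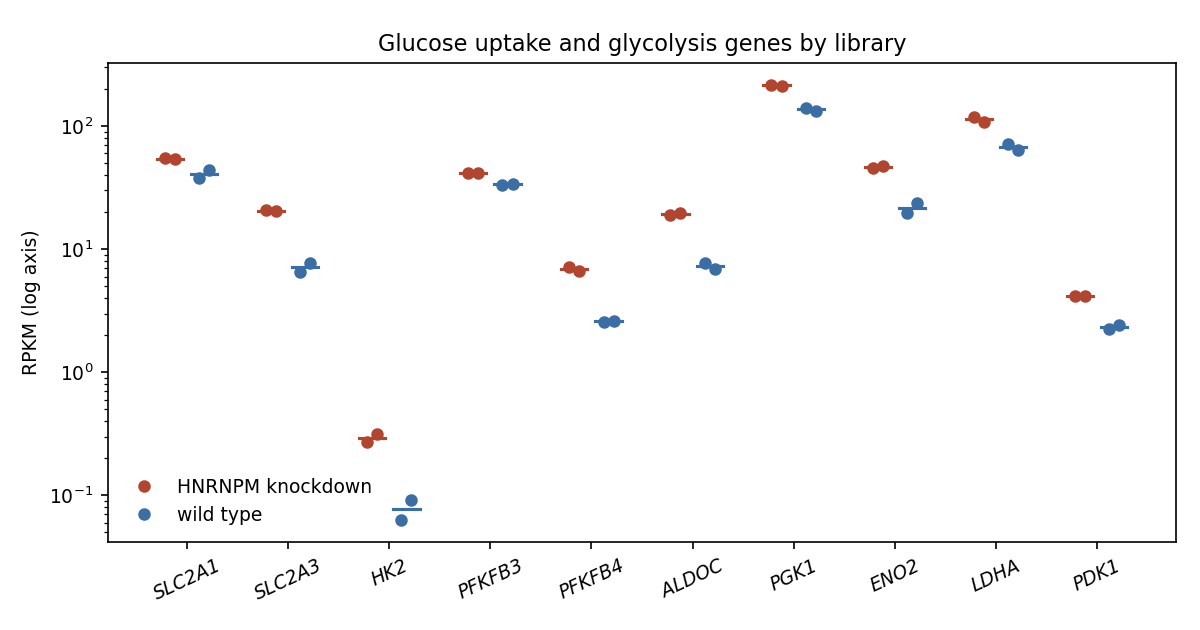
RPKM of the 10 genes in each library on a log axis (points, 2 per group) with the group mean (line), HNRNPM knockdown in red and wild type in blue. In each gene both knockdown libraries lie above both wild-type libraries, and levels span from 0.0630 RPKM for HK2 to 217 RPKM for PGK1.

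The sequences around the transcription starts are shown for 5 of the 10 genes. These are the most abundant enzymes PGK1 and LDHA, the enzymes ALDOC and ENO2 that at least doubled by the point estimate, and PFKFB4. PFKFB4 was chosen after the search as a gene without ACGTG. Each run covers 250 bases before to 50 bases after a RefSeq start (GRCh38.p14), 5′ to 3′ on the strand of the gene. Capitals mark ACGTG, a core that hypoxia-inducible factors are known to bind, on either strand, where it reads CACGT on the printed strand. CACGTG, the E-box that MYC and USF factors are known to bind, holds ACGTG on both strands.
ALDOC, chr17:28576846-28577145, minus strand: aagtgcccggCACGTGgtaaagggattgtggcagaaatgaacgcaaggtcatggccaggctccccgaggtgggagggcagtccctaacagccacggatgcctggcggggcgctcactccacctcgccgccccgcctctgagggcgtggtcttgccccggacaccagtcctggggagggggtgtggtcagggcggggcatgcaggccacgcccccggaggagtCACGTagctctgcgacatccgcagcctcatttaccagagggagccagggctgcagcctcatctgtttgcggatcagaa
PGK1, chrX:78103998-78104297, plus strand: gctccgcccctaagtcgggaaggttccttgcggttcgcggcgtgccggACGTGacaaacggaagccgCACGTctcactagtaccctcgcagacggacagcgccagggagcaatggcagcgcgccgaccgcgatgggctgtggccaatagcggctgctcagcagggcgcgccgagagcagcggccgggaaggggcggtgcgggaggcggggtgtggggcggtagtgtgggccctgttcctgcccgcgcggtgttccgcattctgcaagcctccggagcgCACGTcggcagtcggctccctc
ENO2, chr12:6914330-6914629, plus strand: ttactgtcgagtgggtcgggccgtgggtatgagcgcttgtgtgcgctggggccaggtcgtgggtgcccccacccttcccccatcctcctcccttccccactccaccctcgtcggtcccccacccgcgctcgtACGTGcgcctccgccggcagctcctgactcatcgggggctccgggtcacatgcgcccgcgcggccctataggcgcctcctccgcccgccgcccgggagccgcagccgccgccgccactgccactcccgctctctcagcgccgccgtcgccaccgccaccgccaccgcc
LDHA, chr11:18394313-18394612, plus strand: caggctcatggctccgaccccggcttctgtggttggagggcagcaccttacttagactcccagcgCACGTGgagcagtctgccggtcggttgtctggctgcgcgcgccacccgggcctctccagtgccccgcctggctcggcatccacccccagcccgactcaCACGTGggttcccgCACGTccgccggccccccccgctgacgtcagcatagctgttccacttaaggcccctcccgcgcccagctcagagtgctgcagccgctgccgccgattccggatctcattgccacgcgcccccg
PFKFB4, chr3:48556754-48557053, minus strand: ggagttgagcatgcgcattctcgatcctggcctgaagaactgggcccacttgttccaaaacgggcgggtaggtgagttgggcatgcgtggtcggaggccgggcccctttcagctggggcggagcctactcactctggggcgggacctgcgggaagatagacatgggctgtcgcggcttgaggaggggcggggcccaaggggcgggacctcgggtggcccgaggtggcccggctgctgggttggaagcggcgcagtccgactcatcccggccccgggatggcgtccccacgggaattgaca
PFKFB4 had no ACGTG in this window, nor did SLC2A1 in its own, while the LDHA window printed held it 5 times over both strands and the ALDOC and PGK1 windows 3 times each. LDHA has a second RefSeq start, at chr11:18396101-18396400, and that window held 0. RefSeq windows were matched for 9 of the 10 genes, all but SLC2A3, and some genes have more than 1 start, giving 13 windows. At least 1 ACGTG was found in 8 of the 13 windows, or 61.5%, in windows of 7 of the 9 genes. The share was 21.4% of all 35116 windows of this length and 24.7% of those with at least 65% G and C, which 12 of the 13 windows also reached. GCGTG, the other form of the core, was found in 9 of the 13 windows, those of PFKFB4 and SLC2A1 and the second one of LDHA included, and in 36.5% of all windows. The E-box was found in 4 of the 13 and in 7.26% of all windows. For GCGTG and the E-box, windows of at least 65% G and C were not counted apart. Those comparisons are therefore not matched for G and C. A match describes the letters only and shows no binding in these cells. The 10 genes are well-known targets of hypoxia-inducible factors, so a higher share than over all windows was favoured by the choice of genes. Several of the 13 windows belong to the same gene, and why the genes rose was not tested.

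Glucose uptake was represented by 2 transporters that differed in level and in the size of their change. SLC2A1 (GLUT1; chr1:42925375-42959173, minus strand, GRCh38), the widely expressed basal transporter, had 54.8 and 54.1 RPKM in knockdown libraries, against 37.5 and 43.7 RPKM in wild-type libraries. The 2 wild-type libraries differed from each other by more than the knockdown libraries did, and wild-type replicate 2 was the closer to them. This amounted to 0.36 ± 0.09 (SE) on the log2 scale (limma adjusted p = 0.0424). This call was lost without either knockdown library and without wild-type replicate 1, with limma adjusted p of 0.141, 0.1325 and 0.06455. SLC2A3 (GLUT3; chr12:7919230-7936275, minus strand), a transporter with high affinity for glucose best known from neurons, had 20.9 and 20.4 RPKM in knockdown libraries, against 6.47 and 7.79 RPKM in wild-type libraries. Both knockdown libraries were more than double either wild-type library. The fold was 2.76 with a 95% confidence interval of 2.28 to 3.33 (limma adjusted p = 0.00366). At the pseudocount of 0.1 this was the largest change of the 10 genes, while at 0.01 and by limma-voom HK2 had a larger log2 fold change (1.75 against 1.47 and 1.82 against 1.47). SLC2A3 made up 27.6% and 27.4% of the summed RPKM of the 2 transporters in knockdown and 14.7% and 15.1% in wild-type cells.

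SLC2A14, a neighbouring and nearly identical copy of SLC2A3 that can share its reads, moved with it at a far lower level. It had 0.776 and 0.671 RPKM in knockdown libraries, against 0.206 and 0.274 RPKM in wild-type libraries (log2 fold change 1.23 ± 0.21, limma adjusted p = 0.0136). SLC2A3P1, a processed copy, did not pass (4.23 and 4.38 against 5.83 and 4.17 RPKM, limma adjusted p = 0.303), nor did SLC2A3P4 (limma adjusted p = 0.721). SLC2A1 shares 125 bp of exon with SLC2A1-AS1 on the opposite strand, which had 44 and 33 reads in knockdown libraries, against 24 and 28 reads in wild-type libraries, beside at least 3067 reads of SLC2A1 itself. SLC2A1-AS1 was called higher, with 1.03 and 0.853 RPKM in knockdown and 0.390 and 0.423 RPKM in wild-type libraries (limma adjusted p = 0.0186).

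The hexokinase step traps glucose in the cell, and HK2, the form that binds mitochondria and is often raised in tumours, was close to the detection limit. HK2 (chr2:74833981-74893359, plus strand) had 21 and 22 reads in knockdown libraries, against 7 and 11 reads in wild-type libraries, or 0.273 and 0.316 RPKM against 0.0630 and 0.0923 RPKM. Exact Poisson 95% intervals cover counting error only. They ran from 0.169 to 0.478 RPKM over the knockdown libraries and from 0.0253 to 0.165 RPKM over the wild-type libraries, with a narrow gap between the groups. HK2 passed the filter on low values only through its knockdown libraries, which favoured a difference. Neither this gap nor the call below is independent support for one. The log2 fold change of 1.11 ± 0.22 (limma adjusted p = 0.0202) depended on the pseudocount, with 0.25 at a pseudocount of 1 and 1.75 at 0.01, and the call was lost without any 1 of the 4 libraries (limma adjusted p from 0.0543 to 0.07975). HK2 took 0.416% and 0.488% of the summed hexokinase RPKM in knockdown cells, against 0.0775% and 0.120% in wild-type cells.

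Nearly all hexokinase RNA came from HK1, the housekeeping form, and HKDC1, a hexokinase with a domain structure like that of HK1. HK1 had 38.7 and 38.5 RPKM in knockdown and 35.4 and 34.4 RPKM in wild-type cells (log2 fold change 0.08, limma adjusted p = 0.369). HKDC1 fell to 26.6 and 25.9 RPKM in knockdown cells, against 45.9 and 42.2 RPKM in wild-type cells (log2 fold change -0.81 ± 0.07, limma adjusted p = 0.00415). The summed level of the measured hexokinases was 65.6 and 64.7 RPKM in knockdown and 81.3 and 76.7 RPKM in wild-type cells.

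PFKFB enzymes make and degrade fructose 2,6-bisphosphate, the strongest activator of phosphofructokinase, and the 2 described here rose, by unequal amounts. PFKFB3 (chr10:6144934-6235545, plus strand), with strong kinase activity, had 41.4 and 41.8 RPKM in knockdown libraries, against 33.1 and 34.1 RPKM in wild-type libraries. Replicates lay close together in both groups, and its log2 fold change of 0.25 ± 0.07 was the smallest of the 10 (limma adjusted p = 0.0450). The PFKFB3 call was lost without any 1 of the 4 libraries, with limma adjusted p from 0.0609 to 0.225. PFKFB4 (chr3:48517684-48562015, minus strand) had 7.16 and 6.67 RPKM in knockdown libraries, against 2.57 and 2.61 RPKM in wild-type libraries, a 2.50-fold higher level with an interval of 2.10 to 2.97 (limma adjusted p = 0.00369). PFKFB4 shares 289 bp of exon with UCN2, which had at most 2 reads in a library. Its share of the summed PFKFB RPKM was 13.8% and 12.9% in knockdown and 6.66% and 6.52% in wild-type cells, and PFKFB3 remained the main form with 79.6% and 80.7% against 85.8% and 85.4%. PFKFB2 was not called (log2 fold change 0.12, limma adjusted p = 0.484), and PFKFB1 had at most 0.247 RPKM.

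Further down the pathway, ALDOC and ENO2, isozymes best known from brain, rose more than PGK1, which has no abundant second form here. ALDOC (chr17:28573115-28577264, minus strand), which splits fructose 1,6-bisphosphate, had 18.9 and 19.7 RPKM in knockdown libraries, against 7.70 and 6.91 RPKM in wild-type libraries. Its values were more than doubled in both knockdown libraries (fold 2.51, interval 2.17 to 2.90, limma adjusted p = 0.00314). RP11-192H23.5 on the opposite strand shares 296 bp with ALDOC and moved with it, with 131 and 128 reads against 91 and 65 reads, beside 662 to 704 reads of ALDOC in knockdown and 398 to 413 reads in wild-type libraries. Whether counting used the strand is not stated, so reads of such pairs cannot be told apart.

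ALDOC stayed a minor aldolase, since ALDOA, the muscle and general form, had 236 and 237 RPKM in knockdown and 173 and 160 RPKM in wild-type cells (log2 fold change 0.44 ± 0.08, limma adjusted p = 0.0146). ALDOC took 7.42% and 7.67% of the summed aldolase RPKM in knockdown cells, against 4.25% and 4.13% in wild-type cells. The ALDOA call was lost without either knockdown library (limma adjusted p = 0.09055 and 0.0961).

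PGK1 (chrX:78065188-78129296, plus strand), the first enzyme of the pathway to make ATP, was the most abundant of the 10, with 217 and 211 RPKM in knockdown libraries, against 142 and 133 RPKM in wild-type libraries. The spread within groups was small beside the gap between them (log2 fold change 0.58 ± 0.07, limma adjusted p = 0.00673). PGK1 took 41.0% and 41.1% of the summed RPKM of the 10 genes in knockdown and 43.9% and 41.8% in wild-type cells. PGK2, the testis form, had at most 0.0950 RPKM, and the processed copy PGK1P2 had 21 and 11 reads in knockdown and 8 and 10 reads in wild-type libraries, beside at least 13165 reads of PGK1. PGK1P2 was called higher (limma adjusted p = 0.0335), but it passed the filter on low values only through its knockdown libraries.

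ENO2 (chr12:6913745-6923698, plus strand), the neuronal enolase used as a marker of neuroendocrine tumours, had 45.3 and 47.6 RPKM in knockdown libraries, against 19.8 and 23.6 RPKM in wild-type libraries. The lower knockdown library was still close to double the higher wild-type one (fold 2.05, interval 1.71 to 2.46, limma adjusted p = 0.00506). ENO1, the general form, had 362 and 352 RPKM against 297 and 273 RPKM and did not pass (log2 fold change 0.26, limma adjusted p = 0.0707). ENO3 had 35.9 and 38.3 RPKM against 30.4 and 29.4 RPKM (log2 fold change 0.25, limma adjusted p = 0.0547). ENO2 accordingly took 10.2% and 10.9% of the summed enolase RPKM in knockdown cells, against 5.71% and 7.24% in wild-type cells.

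The fate of pyruvate depends on LDHA, which reduces it to lactate, and on PDK1, which phosphorylates and shuts off the pyruvate dehydrogenase complex. LDHA (chr11:18394388-18408425, plus strand) had 119 and 108 RPKM in knockdown libraries, against 71.7 and 63.6 RPKM in wild-type libraries. Both groups had a spread of about the same size, well below the gap (log2 fold change 0.68 ± 0.09, limma adjusted p = 0.00689). LDHB, the heart form, had 157 and 143 RPKM against 155 and 144 RPKM (log2 fold change -0.06, limma adjusted p = 0.634). LDHA thus made up 43.0% and 43.0% of the summed lactate dehydrogenase RPKM in knockdown cells, against 31.7% and 30.6% in wild-type cells. Its processed copies LDHAP4, with 166 and 137 against 127 and 100 reads, and LDHAP5, with 52 and 45 against 45 and 41 reads, were also called higher (limma adjusted p = 0.0110 and 0.0108), and they may hold reads of LDHA, which had at least 7721 reads in a library. LDHAP2 had 4 and 9 reads in knockdown and 11 and 8 reads in wild-type libraries and was not tested.

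PDK1 (chr2:172555373-172608669, plus strand) had 4.19 and 4.15 RPKM in knockdown libraries, against 2.23 and 2.42 RPKM in wild-type libraries. Every knockdown value was above every wild-type value, and the log2 fold change was 0.76 ± 0.11 (limma adjusted p = 0.0108). AC093818.1 on the opposite strand, which shares 445 bp of exon with PDK1, changed the other way, with 7.04 and 6.58 RPKM in knockdown and 9.39 and 9.29 RPKM in wild-type cells (limma adjusted p = 0.0121). Among the other kinases of the complex, PDK2 (1.58 and 1.54 against 0.966 and 0.984 RPKM) and PDK4 (1.67 and 1.39 against 0.616 and 0.923 RPKM) were called higher (limma adjusted p = 0.0415 and 0.0458), and PDK3 was not (limma adjusted p = 0.0706). PDK2 and PDK4 did not pass with the replicate numbers as a block (limma adjusted p = 0.0600 and 0.05704) or without either knockdown library. Nor did they pass without wild-type replicate 1 or with no filter on low values, and not both passed without wild-type replicate 2. Of the exon length of PDK2, 38.6% overlaps SAMD14. PDK1 was 35.1% and 36.8% of the summed PDK RPKM in knockdown and 31.0% and 32.2% in wild-type cells.

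**Figure D2:**
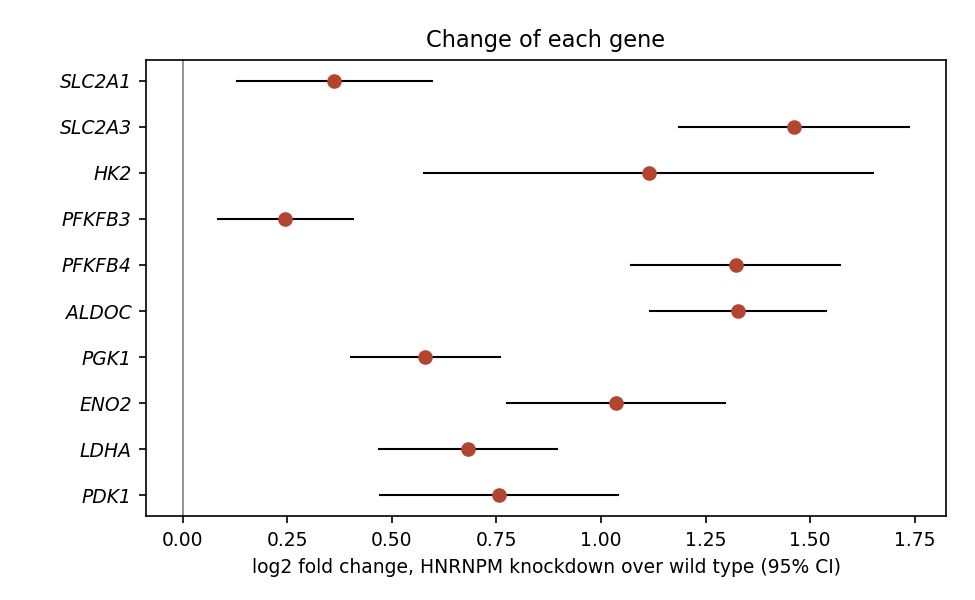
Log2 fold change of each gene, HNRNPM knockdown over wild type (points), with limma's 95% confidence interval (lines). The intervals of SLC2A3, PFKFB4 and ALDOC lie above 1, those of SLC2A1 and PFKFB3 come closest to 0, and that of HK2 is the widest.

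The size of the change varied among the 10 genes, a spread that was not tested as such. The intervals of SLC2A1 (0.13 to 0.60) and PFKFB3 (0.08 to 0.41) lay wholly below those of SLC2A3 (1.19 to 1.74), PFKFB4 (1.07 to 1.57) and ALDOC (1.12 to 1.54). The order of the levels also differed between the groups. In knockdown cells ENO2 (45.3 and 47.6 RPKM) lay above PFKFB3 (41.4 and 41.8 RPKM), whereas in wild-type cells ENO2 (19.8 and 23.6 RPKM) lay below PFKFB3 (33.1 and 34.1 RPKM). ALDOC and SLC2A3 overlapped in wild-type cells and no other neighbours in the order of wild-type levels did. From the top, the wild-type order ran PGK1, LDHA, SLC2A1, PFKFB3, ENO2, ALDOC, SLC2A3, PFKFB4, PDK1 and HK2. RPKM is spread over all annotated exons of a gene, from 2928 bp in ALDOC to 14883 bp in PDK1, so genes with long exons that are little used appear lower.

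**Figure D3:**
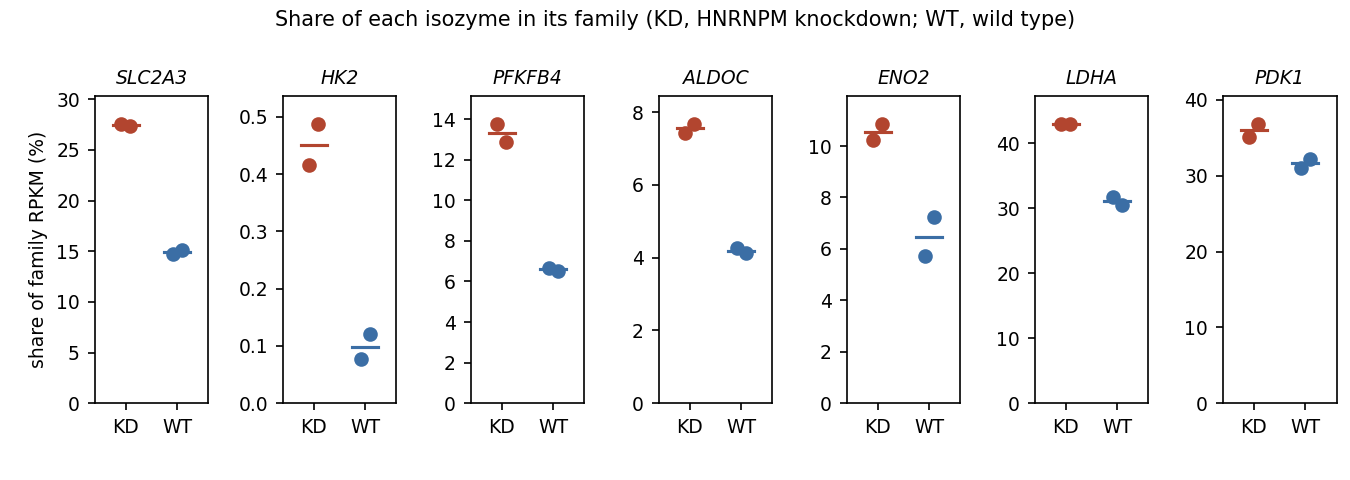
Share of each isozyme in the summed RPKM of its family in each library (points, 2 per group) with the group mean (line), HNRNPM knockdown (KD) left of wild type (WT). Each axis starts at 0 and has its own scale. The share is higher in both knockdown libraries in all 7 panels, and even so HK2 stays below 0.5% and ALDOC below 8%. SLC2A1, PFKFB3 and PGK1, whose shares were lower in knockdown, are not shown. The family of SLC2A3 is SLC2A1 and SLC2A3 only, so the shares of these 2 change by equal and opposite amounts.

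Within the families, the shares of SLC2A3, HK2, PFKFB4, ALDOC, ENO2, LDHA and PDK1 were higher in both knockdown libraries than in both wild-type libraries. The mean differences were widest for SLC2A3, at 12.6 percentage points, and LDHA, at 11.9, and narrowest for HK2, at 0.353. With 2 libraries against 2, the exact two-sided permutation test of each of these shares gave p = 0.33, which is the smallest it can give, so these shifts are reported as values. The share of SLC2A1 and that of PFKFB3 were lower by 12.6 and 5.40 points (72.5% against 85.1%, and 80.2% against 85.6%), although both genes were themselves higher.

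**Figure D4:**
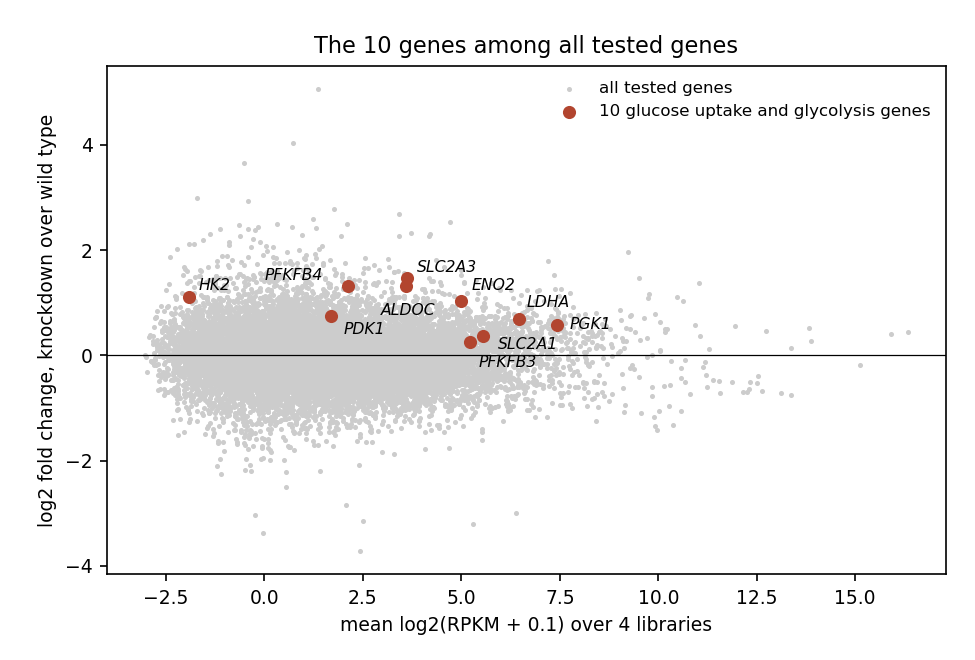
Mean log2(RPKM + 0.1) over the 4 libraries against the log2 fold change of each tested gene (grey), with the 10 genes in red. All 10 lie above 0, SLC2A3 highest at 1.46, and PGK1 furthest to the right.

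Exon length and scaling between libraries moved with the calls over all genes. Median log2 fold changes were 0.03 in the 10% of genes with the shortest exons and -0.08 in the 10% with the longest, where 122 were called higher and 318 lower and where PDK1 lies. With that trend removed all 10 genes were called higher, PDK1 with a log2 fold change of 0.84. Of the 5032 genes called in all, 44.5% were higher in knockdown cells, and 55.5% of 5017 called with values scaled to total reads as deposited, under which all 10 genes were again called higher.

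The other genes of glucose metabolism moved in both directions. Of 95 listed genes, 93 were matched and 81 tested, and 18 were called higher and 13 lower, beside 11.1% called higher and 13.8% called lower over all tested genes, with a median log2 fold change of 0.03. Among 15 further glycolytic enzymes tested, 6 were higher and 1, HKDC1, lower (median 0.26). TPI1, triosephosphate isomerase, had 318 and 316 RPKM in knockdown and 222 and 204 RPKM in wild-type cells (log2 fold change 0.51 ± 0.08, limma adjusted p = 0.0113). PGAM1, phosphoglycerate mutase, had 48.1 and 46.9 RPKM against 34.04 and 32.8 RPKM (0.44 ± 0.06, limma adjusted p = 0.00889). Leaving out knockdown replicate 1 reduced the count of 6 to 0, leaving out knockdown replicate 2 reduced it to 1, and it was 9 by limma-voom and with values scaled as deposited. GAPDH, the most abundant of the 6, had 1419 and 1404 RPKM against 1022 and 887 RPKM (limma adjusted p = 0.0382), and PKM, which makes pyruvate, did not pass (369 and 367 against 316 and 316 RPKM, limma adjusted p = 0.194).

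Of 11 other glucose transporters tested, SLC2A14 was higher and SLC2A8, an intracellular transporter, lower (2.48 and 2.21 against 4.003 and 3.199 RPKM, limma adjusted p = 0.0308), and 9 were not called. The shares over all tested genes, 11.1% called higher and 13.8% lower, stand beside the counts of this paragraph. SLC2A8 did not pass without either knockdown library or without wild-type replicate 1, and SLC2A14 did not pass without wild-type replicate 1. Of the 2 other tested genes of fructose 2,6-bisphosphate control, PFKFB2 and TIGAR, 0 were called by limma, 0 by limma-voom and 0 had an unadjusted p under 0.05 in limma. TIGAR, a phosphatase that lowers fructose 2,6-bisphosphate, had 2.41 and 1.73 RPKM against 2.20 and 2.03 RPKM. In the lactate and pyruvate list, BSG, the partner protein of lactate transporters, fell to 97.04 and 103 RPKM in knockdown cells, against 125 and 142 RPKM in wild-type cells (limma adjusted p = 0.0201). SLC16A1 (MCT1), a lactate transporter, fell too (9.32 and 8.68 against 10.8 and 11.7 RPKM, limma adjusted p = 0.0320), and MPC2, a subunit of the mitochondrial pyruvate carrier, rose (9.56 and 8.86 against 6.95 and 7.12 RPKM, limma adjusted p = 0.0445). None of these 3 passed without knockdown replicate 1 or without knockdown replicate 2. MPC2 did not pass without either wild-type library or with the replicate block either (limma adjusted p = 0.1177, 0.0922 and 0.05704), and 22.5% of the exon length of MPC2 overlaps DCAF6. In the list of the pyruvate dehydrogenase complex, where PDK2 and PDK4 were the 2 called higher of 11 tested, DLD was the 1 lower gene (30.1 and 27.6 against 33.8 and 34.9 RPKM, limma adjusted p = 0.0314), and without any 1 of the 4 libraries it did not pass. The count of 2 was 0 with the replicate block and 5 with values scaled as deposited.

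Gluconeogenesis, which runs against glycolysis, had 3 of 6 tested genes lower and 0 higher, the median log2 fold change being -0.55. Over all tested genes, 13.8% were called lower and 11.1% higher. SLC37A4, the glucose 6-phosphate carrier of the endoplasmic reticulum, fell to 2.58 and 2.39 RPKM in knockdown cells, against 5.02 and 5.79 RPKM in wild-type cells (log2 fold change -1.15 ± 0.12, limma adjusted p = 0.00557). G6PC3, a glucose 6-phosphatase, fell to 5.53 and 5.56 RPKM, against 8.18 and 9.14 RPKM, and PCK2, the mitochondrial phosphoenolpyruvate carboxykinase, to 5.35 and 5.86 RPKM, against 8.42 and 8.61 RPKM (limma adjusted p = 0.00876 and 0.00892). These 3 calls held in each of the 14 alternatives. SLC37A4 shares 544 bp of exon with TRAPPC4 on the opposite strand, and their reads cannot be told apart there. TRAPPC4 had 190 and 144 reads in knockdown and 382 and 391 reads in wild-type libraries. SLC37A4 had 203 and 170 against 569 and 704 reads. G6PC, the liver glucose 6-phosphatase, had at most 0.0154 RPKM, and the 0 genes called higher by limma stood beside 0 by limma-voom and 0 at an unadjusted p under 0.05.

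In the pentose phosphate pathway 3 of 7 genes were called lower by limma and 0 higher (1 by limma-voom, and 1 at an unadjusted p under 0.05). For this list and the next, limma called 13.8% of all tested genes lower and 11.1% higher. PGD, 6-phosphogluconate dehydrogenase, had 229 and 224 RPKM in knockdown and 285 and 278 RPKM in wild-type cells, and TKT, transketolase, 69.6 and 69.2 against 82.8 and 82.7 RPKM (limma adjusted p = 0.0201 and 0.0210). Neither passed without knockdown replicate 1 or without knockdown replicate 2. Glycogen genes had 4 of 9 tested members higher and 1 lower. PYGL, the liver glycogen phosphorylase, had 15.5 and 15.6 RPKM against 8.92 and 8.51 RPKM, while PYGB, the brain form, had 108 and 109 RPKM against 153 and 150 RPKM (limma adjusted p = 0.00454 and 0.00638). PGM1, which links glycogen to glycolysis, and GYS1, a glycogen synthase, rose by 0.69 and 0.42 on the log2 scale (limma adjusted p = 0.00585 and 0.0161). With either knockdown library left out, the count of 4 was 2.

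Among 13 regulators of the pathway 4 were called higher and 1 lower, beside 11.1% called higher and 13.8% called lower over all tested genes. HIF1A, which encodes the oxygen-regulated subunit HIF-1 alpha, had 38.2 and 35.3 RPKM in knockdown and 39.1 and 36.5 RPKM in wild-type cells (log2 fold change -0.10, limma adjusted p = 0.337). EPAS1, which encodes HIF-2 alpha, and ARNT, their shared partner, rose by 0.36 and 0.39 on the log2 scale (limma adjusted p = 0.0217 and 0.0201). EGLN1 and EGLN3, the oxygen-sensing prolyl hydroxylases and themselves hypoxia targets, rose too. EGLN1 had 21.0 and 20.7 RPKM against 12.02 and 11.4 RPKM and EGLN3 0.321 and 0.319 RPKM against 0.0742 and 0.111 RPKM (limma adjusted p = 0.00434 and 0.0204). EGLN3 reached the 10 read equivalents of the filter in both knockdown libraries but in only 1 wild-type library, so its inclusion, like that of HK2, favoured a difference. The count of 4 was 1 without knockdown replicate 1, knockdown replicate 2 or wild-type replicate 1, and 2 without wild-type replicate 2. MYC, a transcription factor that acts on many glycolysis genes, had 47.6 and 47.5 RPKM against 55.96 and 52.4 RPKM (limma adjusted p = 0.0439). The count of 1 lower was 0 under 10 of the 14 alternatives, among them each left-out library and both other scalings.

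**Figure D5:**
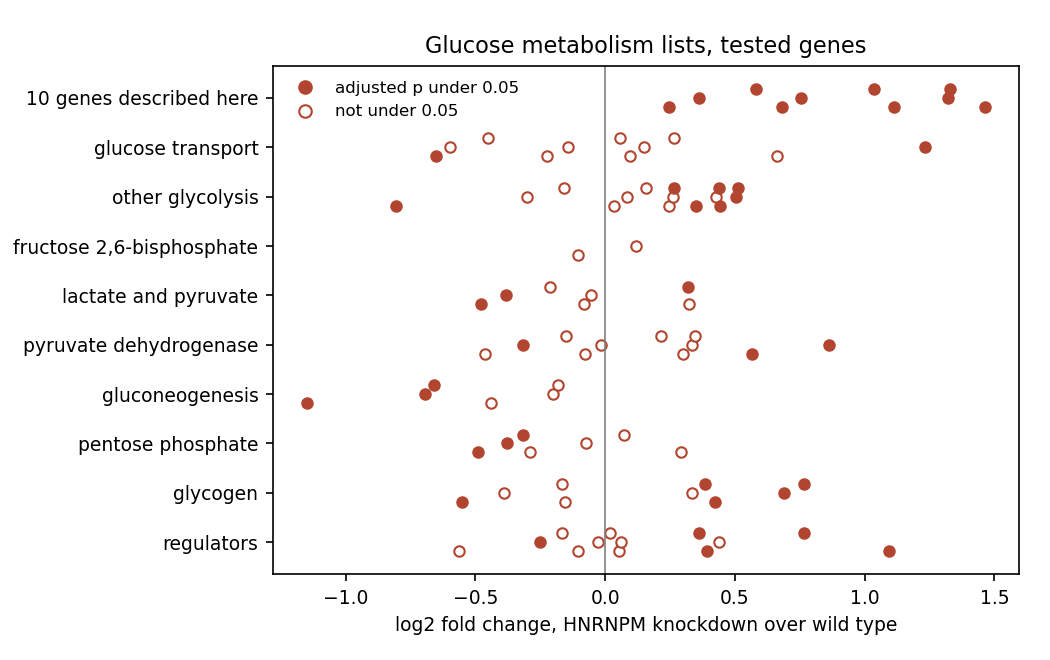
Log2 fold change, HNRNPM knockdown over wild type, of each tested gene in the lists of glucose metabolism (1 point per gene; filled, adjusted p under 0.05; points are offset vertically for legibility). The 10 genes in the top line all lie right of 0, gluconeogenesis genes all lie left of 0, and the other lists lie on both sides. Over all tested genes, 9474 of 20221 had a log2 fold change above 0. Among the gluconeogenesis genes, FBP2 passed the filter only through its wild-type libraries, as HK2 in the top line did only through its knockdown libraries.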

How the data were processed

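RNA-seq of 2 HNRNPM knockdown and 2 wild-type MHCC97H libraries was used. The deposited RPKM values were made by the authors, 1 value per gene name and library, using, per the submitters' processing notes, StringTie 1.3.2, edgeR 3.12.1, featureCounts of Subread 1.5.1 and Trimmomatic 0.36. Nothing states the aligner, the strand setting or how molecular identifiers were treated. Although mm9 is the build in those notes, of 26367 names found once in GENCODE v29 (GRCh38), 93.8% had the same start and end as in the files, whose coordinates are given. RPKM times exon length gave whole reads for 100% of values, within 0.01 of a read.

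RPKM was divided by TMM factors and put on the log2(RPKM + 0.1) scale for limma 3.58.1, run in R 4.3.3 (trended moderation, group only, adjusted p under 0.05). Fold changes on this scale understate changes of low genes. Genes needed the equivalent of 10 reads in 2 libraries and 15 reads in total. With 2 residual and 3.56 prior degrees of freedom, p-values lean on the pooled spread. Alternatives were pseudocounts, filters, scalings, limma-voom, robust moderation, a replicate block and leaving out each library.

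The 10 genes, lists and tests were chosen with earlier results of these data known. Named genes are HNRNPM, the 10 genes, their isozymes, overlapping genes and processed copies with at least 10 reads in a library, up to 4 called genes per list with the smallest adjusted p (otherwise the 2 most abundant), and the check markers. G6PC, FBP2, GAPDH, PKM, HIF1A and MYC are named as well, chosen from the lists after values were seen. Some genes that this rule names are not reported here.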

Additional observations from a re-analysis of the deposited data

How the results depend on the processing

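The 10 genes kept their direction under each of the 14 alternatives, and SLC2A3, PFKFB4, ALDOC, PGK1, ENO2, LDHA and PDK1 kept their calls under all 14, while SLC2A1, HK2 and PFKFB3 lost theirs under some, for causes that were not tested apart from the fewer libraries left. HK2 was not tested under the stricter filter, and PFKFB3 was also lost with robust moderation (limma adjusted p = 0.05975). Leaving out 1 library gave 7 to 8 of the 10 genes called and 2513 to 3218 genes in all, 968 to 1531 higher and 1322 to 1690 lower, and of the other pathway genes 4 to 12 higher and 5 to 11 lower. With no filter on low values 1806 of 39306 genes were called, 693 higher and 1113 lower, with 7 of the 10 genes, 4 other pathway genes higher and 5 lower. A library left alone in its group is assumed to vary like the other group. Limma-voom on the recovered reads called 7232 genes. The replicate numbers do not pair the libraries by their labels (correlation of same-numbered deviations 0.0628 across genes). With them as a block, 5129 genes were called, 2348 higher and 2781 lower, with 10 of the 10 genes, 16 other pathway genes higher and 12 lower, and HNRNPM at -1.35. Depth limits HK2 most. Shares of family reads in place of RPKM moved the difference for SLC2A3 to 14.15 points and for ALDOC to 1.70 points.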
